A study of Mus musculus with 12 samples.

Results

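The genes described here encode the lamins and a set of proteins that sit with them at the nuclear envelope. They were chosen by symbol: the A-type lamin gene Lmna, the B-type lamin genes Lmnb1 and Lmnb2, the inner nuclear membrane genes Lbr, Nrm, Tmpo and Emd, the SUN-domain genes Sun1 and Sun2, and the chromatin-bridging gene Banf1. These were 10 of the 23337 gene symbols in the deposited count table, and all 10 were among the 12406 genes with enough counts to be tested. Their raw counts ran from 36 to 334 per library for Nrm, the lowest, and from 5354 to 10367 for Lmna, the highest.

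RNA was sequenced from NU1, a line of normal mouse urothelial cells that became immortal on serial passaging, in 4 groups of 3 libraries. Proliferating cells carried the control hairpin shNT (genotype label WT) or the Stag2 hairpin sh4 (genotype label Stag2-KD), and quiescent cells carried the same hairpins. Quiescent cultures had grown to confluence and then received 1 uM rosiglitazone, a PPAR gamma agonist, with 0.5 uM erlotinib, an inhibitor of the EGF receptor kinase, and they carry the label day 7. Confluence, both drugs and the time in culture therefore come together in every quiescent library, so their parts cannot be told apart, and the knockdown rests on 1 hairpin in 1 cell line. Each group held 1 library from each of experiments 5, 7 and 9, which the labels also give as batches 3, 1 and 2. The labels name experiments rather than separate animals or separately derived lines, so p-values measure the spread between these libraries, part of which may be technical. Values listed by library below follow the order of experiments 5, 7 and 9.

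Lamins form a filament meshwork under the inner nuclear membrane that carries mechanical load and anchors heterochromatin. The lamin B receptor encoded by Lbr and the A-type lamins are known as alternative tethers of peripheral heterochromatin, and low Lmnb1 is widely used as a marker of senescent cells. SUN-domain proteins couple the lamina across the envelope to nesprins and the cytoskeleton, while Banf1 and the LEM-domain proteins encoded by Tmpo and Emd link chromatin to the re-forming envelope after mitosis.

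Library totals ran from 14524429 to 21987539 counts. Stag2 was lower in the sh4 libraries in both states, with a log2 fold change of -2.26 in proliferating and -3.32 in quiescent cells (edgeR adjusted p 0.00121 and 3.39e-05). Of 16 epithelial and urothelial markers, 12 had a mean above 1 CPM (counts after scaling each library by its total and its TMM factor); Trp63 was at 0 in all 12 libraries, and the uroplakin genes Upk1b, Upk2 and Upk3a had means under 1 CPM. No fibroblast, smooth muscle or endothelial marker had a mean above 1 CPM, and of the immune markers only Cd68 did. The summed epithelial markers ran from 12191 to 19025 CPM in quiescent control and from 21219 to 22893 CPM in quiescent knockdown libraries, which did not overlap. The part of that shift in the results was not tested.

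Motifs that cell-cycle regulators are known to read were searched in the members' promoters, since the compared states differ in proliferation. The stretches shown are those with a motif other than CCAAT; they belong to Lbr, which fell on quiescence, to Sun2, which rose, and to Tmpo and Banf1, which did not pass the main test. The sequences are RefSeq promoters on GRCm38.p6, from 250 bases before to 50 bases after each start site. An entry was matched for 9 of the 10 members, 14 start sites in all; Lmnb1 had none. The motifs TTTGAA (the core of the cell-cycle homology region), TTTCCCGC and TTTGGCGC (E2F-type) and CCAAT were searched on both strands, and the matches printed here overlap no other match. Each line is written 5′ to 3′ on the gene's strand, with the motif, or its reverse complement, in capitals.
Lbr, chr1:181842429-181842458, minus strand, TTTGAA on the opposite strand at -45 from the start site: cgccggcgatgaTTCAAAaggtcgagggac
Tmpo, the second start site, chr10:91170561-91170590, minus strand, TTTGAA at -28: gatggagggcttTTTGAAccgttttgtttc
Sun2, chr15:79742614-79742643, minus strand, TTTGAA on the opposite strand at -95: ggagcctttgtgTTCAAAtcaaccaatggg
Tmpo, the second start site, chr10:91170727-91170756, minus strand, TTTCCCGC at -195: agttgtagcgtTTTCCCGCtttagcgccga
Banf1, the first start site, chr19:5366939-5366968, minus strand, TTTCCCGC at -81: ggtcctccggaTTTCCCGCcccctcttcgt

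TTTGAA was present in 3 of the 14 member promoters (21.4%), against 17.9% of all 32851 promoters and 40.0% of 25 promoters of the cell cycle list. TTTCCCGC was present in 2 of 14 (14.3%), against 1.07% of all promoters and 3 of 25 in the cell cycle list. TTTGGCGC was in 0 of 14 member promoters, 0.514% of all and 16.0% of the cell cycle list. CCAAT was in 8 of 14, against 37.4% and 80.0%. The searched motifs were found in none of the entries for Nrm and Lmnb2. Of the 3 genes with TTTGAA, Lbr fell and Sun2 rose on quiescence. A match describes letters in these windows only.

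To compare genes, levels were divided by the kilobases of all annotated exons of each gene, so each value depends on that length. Banf1 and Lmna were at the top in proliferating control cells, at 107 ± 30.7 and 97.8 ± 3.93 CPM per kb (SD, n = 3), with overlapping libraries. Lmnb1 followed at 64.5 ± 10.6 CPM per kb and overlapped neither neighbour. Tmpo, Lbr and Emd came next, between 26.2 and 32.0 CPM per kb, and overlapped each neighbour among themselves, although the exons of Tmpo span 10.998 kb over several isoforms, so that its level per kb depends on the length chosen. Sun2, Sun1, Lmnb2 and Nrm formed the lowest set, between 11.8 and 18.3 CPM per kb, each overlapping the next.

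In quiescent control cells the order changed. Lmna and Banf1 remained at the top at 66.3 ± 4.72 and 64.4 ± 10.2 CPM per kb (SD, n = 3). Sun2 came next at 38.7 ± 5.79 CPM per kb, above Tmpo, Emd and Lmnb1, which overlapped each neighbour between 22.2 and 23.0 CPM per kb. Lbr came down to 8.23 ± 2.00 CPM per kb, beside Lmnb2 at 8.80 ± 1.43, and Nrm was lowest at 1.85 ± 0.446. The quiescent knockdown cells had the same first 3 genes and the same last gene, with Nrm at 4.24 ± 0.741 CPM per kb.

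**Figure D1:**
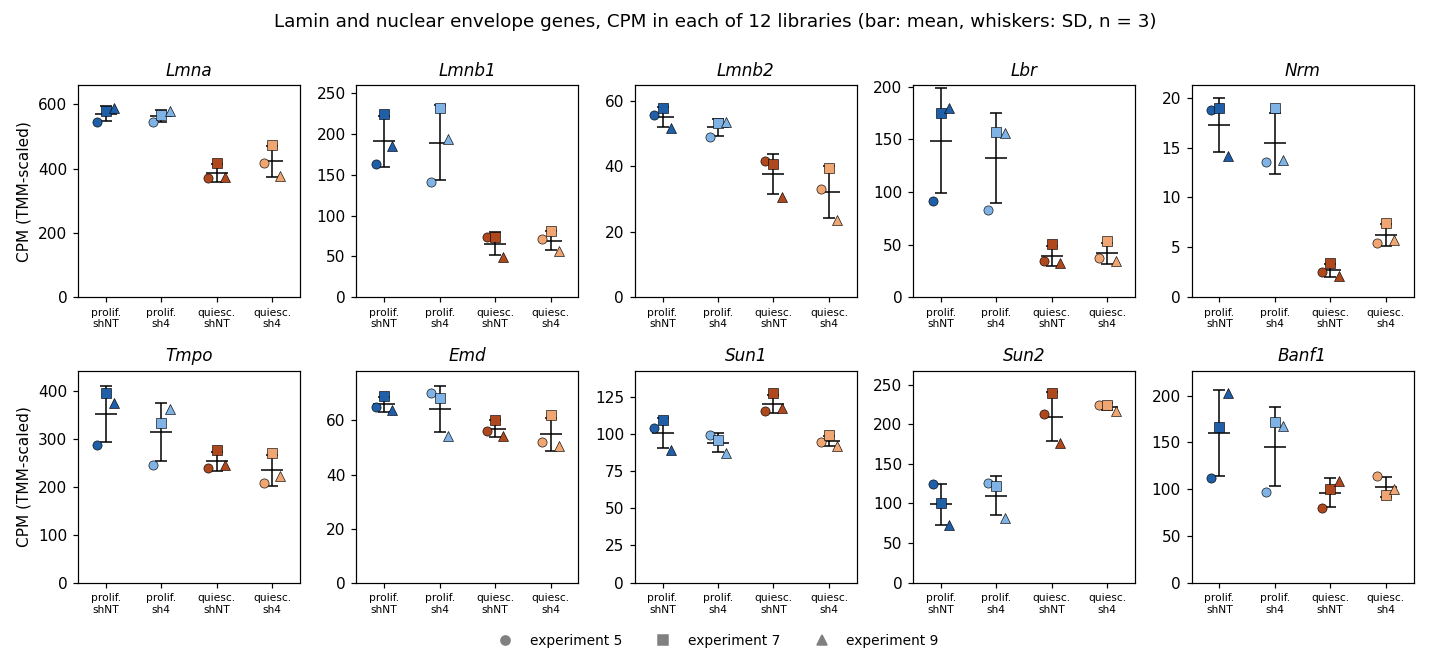
CPM (TMM-scaled) of each of the 10 genes in each of the 12 libraries; the x axis gives the 4 groups, symbols mark the experiment, horizontal bars the mean and whiskers the SD (n = 3). Lmnb1, Lbr and Nrm are lower and Sun2 higher in every quiescent library than in any proliferating one, and Nrm is higher in the 3 quiescent sh4 libraries than in the 3 quiescent shNT libraries.

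Quiescence was compared with proliferation first in control cells. Of the 10 genes, 6 passed the edgeR quasi-likelihood test: Lmna, Lmnb1, Lmnb2, Lbr and Nrm fell and Sun2 rose. Among all 12406 genes tested, 20.0% passed in either direction, 11.7% lower and 8.33% higher. With the experiment added as a term (the replicate block), 9 of the 10 passed, against 35.3% of all genes; Tmpo and Banf1 joined the lower genes and Sun1 the higher ones. The DESeq2 Wald test called 8 of the 10, Tmpo and Banf1 in addition to the 6, against 25.9% of all genes. The proliferating and quiescent libraries of all 10 genes did not overlap, as was so for 35.6% of all genes, and all 10 differed in the same direction in the 3 experiments, as did 63.1% of all genes. The median log2 fold change of the 10 was -0.56, and that of all genes was 0.0047. In these bulk libraries, fewer cells of a type and less RNA per cell cannot be told apart, and all values are relative to the library total.

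Lmna, at chr3:88480147-88509956 on GRCm38, encodes lamins A and C. It measured 545, 579 and 589 CPM in proliferating and 369, 419 and 373 CPM in quiescent control libraries. Each quiescent library was well under every proliferating one. Lmna thus fell 1.48-fold (-0.56 on the log2 scale, SE 0.12, edgeR adjusted p 0.00697).

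Lmnb1, which encodes the B-type lamin that is low in senescent cells, measured 163, 225 and 186 CPM in proliferating and 73.2, 74.2 and 49.9 CPM in quiescent control libraries. The highest quiescent library was below the lowest proliferating library by a wide margin. It fell 2.91-fold (-1.54 on the log2 scale, SE 0.22, edgeR adjusted p 0.000967). The other B-type lamin gene, Lmnb2, at chr10:80901203-80918245, measured 55.7, 58.0 and 51.9 CPM and then 41.6, 40.9 and 30.7 CPM. These groups did not overlap either, the lowest proliferating library being at 51.9 CPM and the highest quiescent one at 41.6 CPM. Lmnb2 fell by 0.55 on the log2 scale (SE 0.18, edgeR adjusted p 0.0489), and this call was the least secure: it was lost when any of 10 of the 12 libraries was left out (edgeR adjusted p 0.0547 to 0.155), the exceptions being the quiescent knockdown libraries of experiments 7 and 9. It was also lost with library totals alone (0.0680), with no filter on low counts (0.0570) and in a fit to only the 6 libraries compared (0.0531), all in edgeR, and it held with the replicate block (0.0121).

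The inner membrane genes held the largest falls. Lbr, at chr1:181815335-181843046, whose product binds B-type lamins and heterochromatin and also acts as a sterol reductase, measured 91.0, 175 and 180 CPM in proliferating and 34.7, 50.1 and 32.7 CPM in quiescent control libraries. Its proliferating library of experiment 5 was low but still above all quiescent ones. On the log2 scale it fell by 1.92 (SE 0.32, edgeR adjusted p 0.00223). Nrm, which encodes nurim, a multi-pass protein of the inner membrane, measured 18.7, 19.0 and 14.2 CPM and then 2.55, 3.43 and 2.15 CPM. All 3 quiescent libraries were far below the proliferating ones, and the fall, 6.37-fold or -2.67 on the log2 scale (SE 0.25, edgeR adjusted p 7.84e-05), was the widest among the 10 genes. The whole of Nrm, at chr17:35861318-35865402 on GRCm38, lies under the antisense gene Ppp1r18os in GENCODE M21, with 200 shared exonic bases. The use of strand in counting is not given in the sources used here, so reads of the pair may not be separated.

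The LEM-domain genes differed less, and neither passed the test without the block. Tmpo, at chr10:91147571-91181315, encodes the isoforms of lamina-associated polypeptide 2. It measured 286, 394 and 374 CPM in proliferating and 238, 276 and 245 CPM in quiescent control libraries, with the groups just apart. The fitted difference was -0.47 on the log2 scale (SE 0.17, edgeR adjusted p 0.0777). With the replicate block it was -0.46 (edgeR adjusted p 0.0124), and without the proliferating control library of experiment 5 it was -0.60 (edgeR adjusted p 0.0317). Emd, at chrX:74254687-74261548, encodes emerin. It measured 64.9, 68.9 and 64.0 CPM and then 56.0, 60.3 and 54.3 CPM. Its log2 fold change was -0.21 (95% interval -0.48 to 0.06), with an edgeR adjusted p of 0.249 and of 0.119 with the block. The Emd exons hold the pseudogene Gm14686, a copy of the translation factor gene Eif1, so some Emd reads may be uncertain.

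Banf1, at chr19:5364638-5367168, encodes the barrier-to-autointegration factor, which cross-bridges DNA and binds LEM-domain proteins. It measured 112, 167 and 203 CPM in proliferating and 79.5, 100.5 and 109 CPM in quiescent control libraries. The lowest proliferating library stood only just above the highest quiescent one. The fitted difference was -0.73 on the log2 scale (SE 0.25, edgeR adjusted p 0.0584). With the replicate block it was -0.71 (edgeR adjusted p 0.0167). Leaving out the proliferating control or the proliferating knockdown library of experiment 5 also brought it past the threshold (edgeR adjusted p 0.0168 and 0.0289). Banf1 shares 428 exonic bases with Eif1ad on the opposite strand.

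The SUN-domain genes were the only members with a higher level in quiescent control cells. Sun2, at chr15:79724070-79742536, measured 124, 101 and 72.5 CPM in proliferating and 213, 239 and 177 CPM in quiescent control libraries. Every quiescent library was above every proliferating one. Sun2 rose 2.11-fold (1.08 on the log2 scale, SE 0.21, edgeR adjusted p 0.00489). Sun1, its paralog at chr5:139200637-139249840, measured 104, 109 and 89.3 CPM and then 116, 127 and 117 CPM. The groups were separate but close. For Sun1 the fitted difference was 0.26 on the log2 scale (SE 0.11, edgeR adjusted p 0.110), and with the block it was 0.26 (edgeR adjusted p 0.0435).

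The proliferating libraries of experiment 5 were the lowest of their group for Lmnb1, Lbr, Tmpo and Banf1 with either hairpin. The cell cycle list moved with them: its 30 genes summed to 2350, 3147 and 3125 CPM in proliferating control and 1788, 2799 and 3378 CPM in proliferating knockdown libraries. The part of that list in these values was not tested. Differences within experiments ranged from -1.15 to -1.89 on the log2 scale for Lmnb1 and from -1.39 to -2.46 for Lbr, the smallest size in each case being in experiment 5.

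**Figure D2:**
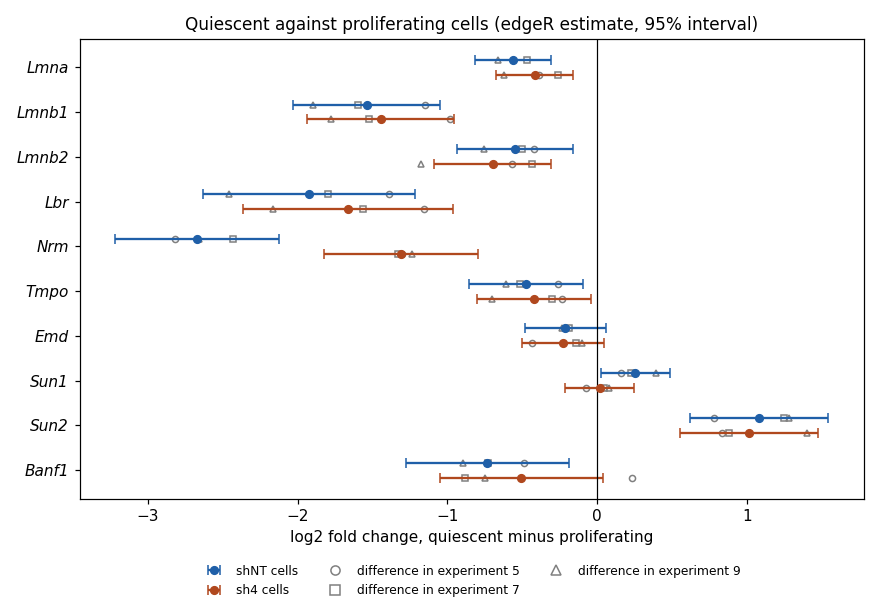
Log2 fold change of quiescent against proliferating cells for each gene (x axis) in shNT and sh4 cells; filled points are edgeR estimates with 95% intervals and open symbols the difference within each experiment. The intervals of Lmna, Lmnb1, Lmnb2, Lbr, Nrm and Tmpo lie under 0 and that of Sun2 above 0 with both hairpins, and the shNT and sh4 intervals of Nrm are apart.

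In Stag2 knockdown cells the same comparison used 6 other libraries, and 6 of the 10 genes passed edgeR's test, 5 lower and 1 higher. Of all genes, 18.4% passed, 10.8% lower and 7.59% higher. Lmnb1 changed by -1.45 on the log2 scale (SE 0.22, edgeR adjusted p 0.00180), Lbr by -1.66 (SE 0.32, edgeR adjusted p 0.00512) and Nrm by -1.31 (SE 0.23, edgeR adjusted p 0.00353). Sun2 rose by 1.01 (SE 0.21, edgeR adjusted p 0.00737). With the replicate block 7 passed, against 33.0% of all genes, Tmpo being the addition (-0.42, edgeR adjusted p 0.0212).

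The knockdown values by library show the same separation for these genes. Lmnb1 measured 141, 232 and 194 CPM in proliferating and 71.0, 80.6 and 56.5 CPM in quiescent knockdown libraries. Lbr measured 82.4, 157 and 156 CPM and then 36.9, 53.2 and 34.7 CPM. Sun2 measured 125, 122 and 81.9 CPM and then 224, 225 and 217 CPM. Neither state overlapped the other for these 3 genes, nor for Lmna, Lmnb2 and Nrm, while Tmpo, Emd, Sun1 and Banf1 overlapped; 37.2% of all genes did not overlap.

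Lmna fell from 544, 567 and 579 CPM to 416, 474 and 376 CPM in knockdown cells, or -0.42 on the log2 scale (SE 0.12, edgeR adjusted p 0.0307). Lmnb2 went from 49.0, 53.4 and 53.7 CPM to 33.0, 39.5 and 23.7 CPM, or -0.70 on the log2 scale (SE 0.18, edgeR adjusted p 0.0199). Both calls were lost without the proliferating knockdown library of experiment 7 or 9, or the quiescent knockdown library of experiment 5 or 9 (edgeR adjusted p 0.0804 to 0.132 for Lmna and 0.0504 to 0.0682 for Lmnb2). The Lmna call was also lost with library totals alone (0.0535), with no filter on low counts (0.0509) and in a fit to only the 6 libraries (0.0815), all in edgeR, and held with the block (0.0124).

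Banf1 did not move the same way in every experiment of the knockdown cells. It went from 97.0 to 114 CPM in experiment 5, from 172 to 93.4 CPM in experiment 7 and from 168 to 99.96 CPM in experiment 9. Its fitted difference was -0.51 on the log2 scale (95% interval -1.05 to 0.04, edgeR adjusted p 0.178). Without the proliferating knockdown library of experiment 5 it was -0.73 (edgeR adjusted p 0.0483), and Tmpo passed as well (-0.57, edgeR adjusted p 0.0425). Sun1 in knockdown cells measured 99.3, 95.7 and 86.9 CPM in proliferating and 94.3, 99.1 and 91.9 CPM in quiescent libraries, a log2 fold change of 0.02 (95% interval -0.21 to 0.25, edgeR adjusted p 0.929). Emd changed by -0.23 (95% interval -0.50 to 0.04, edgeR adjusted p 0.224).

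The balance between lamins was read as ratios of raw counts within each library, which do not depend on how libraries are scaled. The Lmna to Lmnb1 ratio was 3.35, 2.58 and 3.17 in proliferating and 5.04, 5.64 and 7.47 in quiescent control libraries. It was 3.86, 2.44 and 2.98 and then 5.86, 5.88 and 6.65 in knockdown libraries. The states did not overlap with either hairpin, and the mean log2 ratio was higher in quiescence by 0.99 and 1.01. An exact two-sided permutation test of 3 against 3 libraries gave p = 0.1 for each, the smallest it can give, and 0.171 after adjustment over the 12 ratio tests.

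The Lmna to Lbr ratio compares the tethers of heterochromatin. It was 5.99, 3.32 and 3.28 in proliferating and 10.6, 8.35 and 11.4 in quiescent control libraries, and the log2 difference was 1.32 (1.21 in knockdown cells). Both were at the smallest exact permutation p of 0.1 (adjusted 0.171), and the ratios of the states did not overlap. The ratio between the B-type lamin genes, Lmnb2 to Lmnb1, was 0.343, 0.258 and 0.279 in proliferating and 0.569, 0.551 and 0.615 in quiescent control libraries, a log2 difference of 0.99, with 0.70 in knockdown cells (exact permutation p 0.1, adjusted 0.171, for each). In quiescent cells this ratio was also lower with the Stag2 hairpin, at 0.464, 0.491 and 0.420. All 3 knockdown libraries were below all 3 control libraries, by 0.29, 0.17 and 0.55 on the log2 scale within experiments (mean difference -0.34, exact permutation p 0.1, adjusted 0.171). The remaining 5 ratio comparisons between hairpins overlapped.

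**Figure D3:**
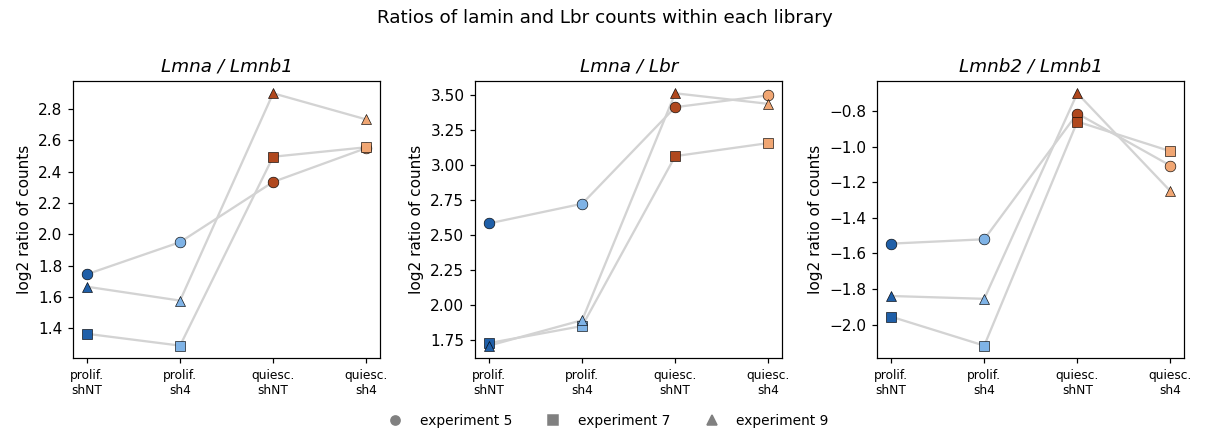
Log2 ratio of raw counts within each library (y axis) for Lmna to Lmnb1, Lmna to Lbr and Lmnb2 to Lmnb1 in the 4 groups (x axis); grey lines join libraries of the same experiment. All 3 ratios are higher in the quiescent libraries than in the proliferating ones, and the Lmnb2 to Lmnb1 ratio is lower in the 3 quiescent sh4 libraries than in the 3 quiescent shNT libraries.

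The Stag2 hairpin was then compared with the control hairpin within each state. In proliferating cells 0 of the 10 genes passed edgeR's test, where 0.0242% of all genes did. None of the 10 had an unadjusted p under 0.05 (1.84% of all genes). The DESeq2 Wald test called 0 of them, against only 12 of all 12406 genes. Every gene's groups overlapped (5.31% of all genes did not). The log2 fold changes lay between -0.17 for Lbr and 0.15 for Sun2. Intervals were narrowest for Sun1 (-0.33 to 0.13) and Lmna (-0.28 to 0.24), and widest for Lbr (-0.85 to 0.51, with an SE of 0.31, or 0.20 with the block).

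In quiescent cells 0 of the 10 passed without the block, where 0.435% of all genes did. With the block 1 passed, against 3.55% of all genes, and the DESeq2 Wald test called 2, against 3.12%. Nrm and Sun1 were the 2 genes with an unadjusted edgeR p under 0.05 (12% of all genes) and the 2 whose groups did not overlap (19.1% of all genes). The median log2 fold change of the 10 was 0.08, and that of all genes was 0.016.

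Nrm was higher with the Stag2 hairpin in quiescent cells. It measured 2.55, 3.43 and 2.15 CPM in control and 5.44, 7.45 and 5.74 CPM in knockdown libraries. Every knockdown library was above every control library, and all 6 stayed below the 13.6 CPM of the lowest proliferating library. The fitted difference was 1.19 on the log2 scale (SE 0.24, 95% interval 0.66 to 1.73, edgeR adjusted p 0.0651), and with the replicate block it was 1.20 (edgeR adjusted p 0.00733). In DESeq2 the adjusted p was 0.00134. The differences within experiments were 1.06, 1.10 and 1.37.

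Summed cell-cycle transcripts, like Nrm, were higher with the Stag2 hairpin in these libraries. The summed level of the 30 cell cycle genes was 241, 320 and 325 CPM in quiescent control and 342, 596 and 395 CPM in quiescent knockdown libraries, which did not overlap. Nrm followed the order of these sums in the knockdown but not in the control libraries. Of the 30, 2 passed the edgeR test (6.67%, against 0.435% of all genes), both higher. They were Ccne2, a G1/S cyclin (log2 fold change 3.01, edgeR adjusted p 0.00530), and Mcm5, a helicase subunit (1.50, edgeR adjusted p 0.0451). Ccne2 was near the floor, with raw counts of 6, 4 and 4 in quiescent control and 49, 47 and 39 in quiescent knockdown libraries. The Mcm5 call was lost without any of 11 of the 12 libraries (edgeR adjusted p 0.0523 to 0.155). The proliferation marker Mki67 measured 0.552, 6.24 and 7.93 CPM in control and 5.49, 33.6 and 17.6 CPM in knockdown libraries, groups that overlap (log2 fold change 1.92, edgeR adjusted p 0.312). The part of the cell cycle list in the Nrm value was not tested.

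Sun1 had a lower level with the Stag2 hairpin in the quiescent libraries, but only the DESeq2 Wald test called it. It measured 116, 127 and 117 CPM in control and 94.3, 99.1 and 91.9 CPM in knockdown libraries. The groups did not overlap, as was so for 19.1% of all genes, and the differences within experiments were -0.29, -0.36 and -0.35 on the log2 scale. The log2 fold change was -0.34 (SE 0.11, 95% interval -0.57 to -0.10). The edgeR adjusted p was 0.218 and with the block 0.0651, and DESeq2 gave 0.0442. Sun1 shares 302 exonic bases with the antisense gene 4930520M14Rik.

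None of the other 8 genes was called between hairpins in quiescent cells, with or without the block or in DESeq2. Lmna changed by 0.13 (95% interval -0.13 to 0.38), Lmnb1 by 0.08 (-0.40 to 0.56), Lmnb2 by -0.23 (-0.62 to 0.16) and Lbr by 0.09 (-0.60 to 0.78) on the log2 scale. Tmpo changed by -0.11 (-0.50 to 0.27), Emd by -0.05 (-0.33 to 0.22), Sun2 by 0.08 (-0.37 to 0.54) and Banf1 by 0.09 (-0.45 to 0.63). The Banf1 differences within experiments were 0.52, -0.11 and -0.13. Each of these 8 intervals includes 0 and also changes of moderate size, and the libraries overlapped for each.

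**Figure D4:**
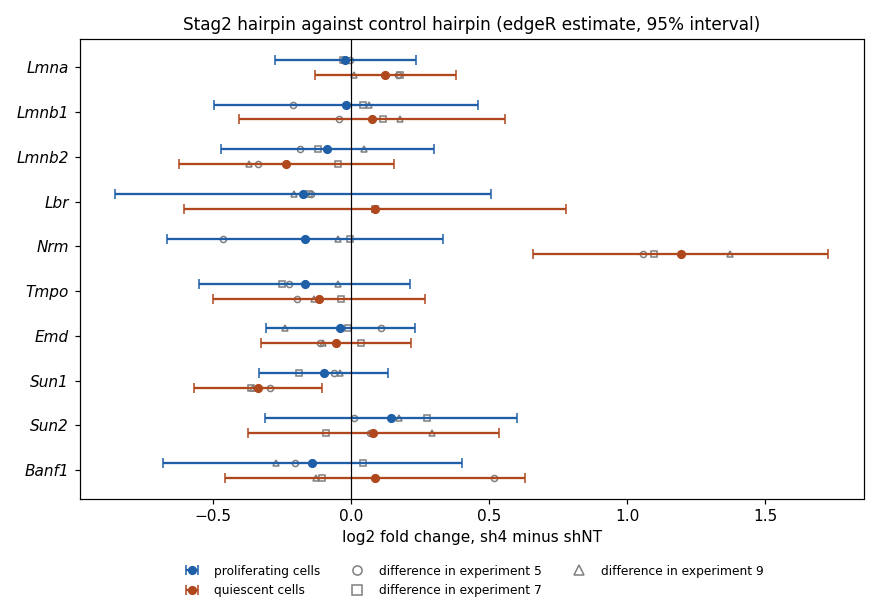
Log2 fold change of the Stag2 hairpin against the control hairpin (x axis) for each gene in proliferating and quiescent cells; filled points are edgeR estimates with 95% intervals and open symbols the difference within each experiment. In quiescent cells the interval of Nrm lies above 0 (0.66 to 1.73) and that of Sun1 below 0 (-0.57 to -0.10), and all other intervals include 0.

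Whether the knockdown effect differed between the states was tested as an interaction. None of the 10 genes passed edgeR's adjusted test, as none of all genes did (0). The DESeq2 Wald test called 0 of the 10, against only 6 of all 12406 genes. Of the 10 genes 1, Nrm, had an unadjusted edgeR p under 0.05, against 1.77% of all genes. The Nrm interaction was 1.36 on the log2 scale (SE 0.33, 95% interval 0.63 to 2.09). The unadjusted p was 0.00169 and the edgeR adjusted p 0.99975, and with the block the adjusted p was 0.278. The same number is the difference between the fall of Nrm on quiescence with the control hairpin (-2.67) and with the Stag2 hairpin (-1.31). For Lmnb1 the interaction was 0.09 (95% interval -0.59 to 0.77), for Lbr 0.26 (-0.71 to 1.23) and for Sun2 -0.07 (-0.71 to 0.58).

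Genes that work with the members were taken from 5 lists. The nuclear pore list, whose genes build the channels through the envelope, changed in 1 direction in quiescent control cells: 17 of 32 tested genes (53.1%, against 20.0% of all genes) passed edgeR's test, all lower (11.7% of all genes), with a median log2 fold change of -0.61. The scaffold genes Nup107 (-1.86, SE 0.20, edgeR adjusted p 0.000163) and Nup37 (-1.65, SE 0.35, edgeR adjusted p 0.00826) and the transmembrane gene Ndc1, listed as Tmem48 (-1.33, SE 0.27, edgeR adjusted p 0.00581), fell most. With the block 25 passed (78.1%, against 35.3% of all genes), all lower. The count came down to 11 without the proliferating control library of experiment 7 or 9 or the quiescent control library of experiment 5, and in a fit to only the 6 libraries. In those fits, in the same order, 1394 of 12639, 1565 of 12602, 1482 of 12648 and 1582 of 11954 of all genes passed.

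The genes of heterochromatin at the lamina also fell where they changed, 9 of 18 against 20.0% of all genes, with a median of -0.38. The DNA-bending genes Hmgb2 (-3.10, SE 0.41, edgeR adjusted p 0.000521) and Hmga2 (-2.98, SE 0.27, edgeR adjusted p 7.24e-05) and the H3K9 methyltransferase gene Suv39h1 (-1.49, SE 0.16, edgeR adjusted p 0.000189) fell most. Hmgb2 and Hmga2 are known for their high level in dividing cells, which the list's name does not say. The cell cycle list fell as a whole, 30 of 30, with a median of -4.25 and Top2a, Mki67 and Bub1 at -5.39, -5.33 and -5.26.

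Of the other 2 lists a smaller share was called, nearer to the 20.0% of all genes. Of 21 tested partners of the LINC complex and inner membrane, 3 rose and 3 fell (28.6% called), and the median was 0.02, near that of all genes. Tmem43, whose product binds emerin and SUN2, rose by 1.11 (SE 0.28, edgeR adjusted p 0.0191), Tmem38a by 1.09 (SE 0.24, edgeR adjusted p 0.00870), and Prr14, which tethers heterochromatin to the lamina, by 0.39 (SE 0.10, edgeR adjusted p 0.0214). Nemp1, listed as Tmem194, fell by 1.30 (SE 0.22, edgeR adjusted p 0.00233). The other two that fell, named after their values were seen, were Nemp2, listed as Tmem194b (-0.91, edgeR adjusted p 0.0446), and the low-level Ankle1 (edgeR adjusted p 0.000671). The nesprin gene Syne2 changed by 0.45 (edgeR adjusted p 0.325). The count of this list came down from 6 to 3 without the proliferating control library of experiment 7 or 9. Of all genes, 1394 of 12639 and 1565 of 12602 passed in those fits.

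Of 21 genes of lamin processing and envelope assembly, 1 rose and 4 fell (23.8% called, near the 20.0% of all genes), with a median of 0.04. Chmp7, an ESCRT gene of envelope sealing, rose by 0.47 (SE 0.14, edgeR adjusted p 0.0358). Kpna2, an importin gene, fell by 1.75 (SE 0.25, edgeR adjusted p 0.000821), Vrk1, a kinase of the Banf1 protein, by 1.43 (SE 0.20, edgeR adjusted p 0.000701), and Rcc1, the Ran exchange factor gene, by 1.24 (SE 0.22, edgeR adjusted p 0.00279). Kpnb1, an importin gene named after its value was seen, was the remaining lower gene (-0.67, edgeR adjusted p 0.00255). The lamin A protease gene Zmpste24 changed by 0.15 (edgeR adjusted p 0.478). The calls of 3 of the higher genes were lost when any of several libraries was left out, while their log2 fold changes ran from 0.87 to 1.17 for Tmem43, 0.32 to 0.40 for Prr14 and 0.35 to 0.54 for Chmp7. Without the proliferating control library of experiment 7 the edgeR adjusted p was 0.0532 for Tmem43, 0.0966 for Prr14 and 0.0907 for Chmp7, and without that of experiment 9 it was 0.0620, 0.0541 and 0.123. Without the quiescent control library of experiment 7 it was 0.0577, 0.0534 and 0.0622, and without that of experiment 5 it was 0.0618 for Prr14 and 0.0522 for Chmp7. Chmp7 was also lost without the quiescent control (0.118) or quiescent knockdown (0.0526) library of experiment 9. In a fit to only the 6 libraries compared, the edgeR adjusted p was 0.0761 for Prr14 and 0.0837 for Chmp7, and with no filter on low counts it was 0.0542 for Chmp7.

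**Figure D5:**
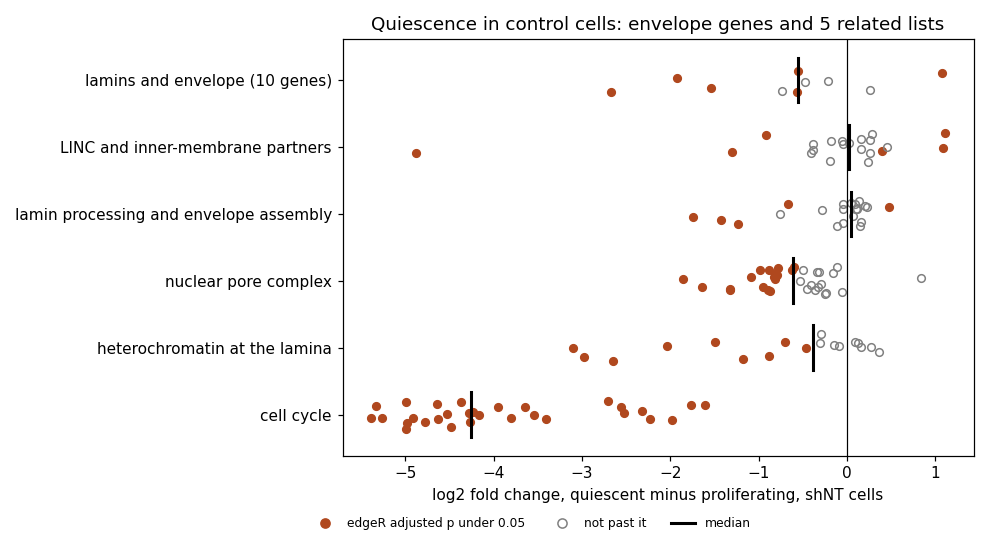
Log2 fold change of quiescent against proliferating shNT cells (x axis) for the 10 genes and the tested genes of 5 related lists; filled points passed an edgeR adjusted p of 0.05, open points did not, and black bars are list medians. The medians run from -4.25 for the cell cycle list and -0.61 for nuclear pore genes to 0.04 for lamin processing and envelope assembly.

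In knockdown cells the quiescence counts were 14 of 32 nuclear pore genes, 8 of 18 heterochromatin genes and 30 of 30 cell cycle genes, all lower, 5 of 21 processing genes, all lower, and 1 higher (Tmem38a) and 3 lower (Nemp1, Nemp2 and Ankle1) of 21 LINC partners. Of all genes 18.4% passed (33.0% with the block), a share near those of the processing list (23.8%) and the LINC list (19.0%). The pore count was 22 with the block (21 lower) and 6 to 9 without the proliferating knockdown library of experiment 7 or 9 or the quiescent knockdown library of experiment 5 or 9. The processing count was 8 with the block and 3 without the proliferating control library of experiment 7, the quiescent control library of experiment 5, the proliferating knockdown library of experiment 7 or any quiescent knockdown library. The LINC count was 1 without the proliferating knockdown library of experiment 7 and 2 without the quiescent knockdown library of experiment 5 or 9. Of all genes, 1333 of 12639 and 1452 of 12587 passed without the proliferating knockdown library of experiment 7 or 9. Without the quiescent knockdown library of experiment 5, 7 or 9, 1366 of 12618, 1947 of 12632 and 1186 of 12547 passed. Without the proliferating control library of experiment 7 or the quiescent control library of experiment 5, 1975 of 12639 and 1988 of 12648 did.

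Between hairpins, the 4 envelope lists held 0 genes past edgeR's threshold in either state without the block. At an unadjusted p under 0.05 there were 1 LINC partner (4.76%) and 1 heterochromatin gene (5.56%) in proliferating cells, against 1.84% of all genes. The quiescent cells held 3 LINC partners and 2 genes in each of the other lists, shares of 6.25% to 14.3% where 12% of all genes had such a p. The DESeq2 Wald test called 0 in proliferating cells, where it called 12 of all 12406 genes. For quiescent cells it called 0 pore genes and 1 gene in each of the other lists, where it called 3.12% of all genes. In quiescent cells the block added 1 lower gene in each, or 3.13% to 5.56% of a list, near the 3.55% of all genes: Tor1b, an AAA ATPase gene of the envelope lumen (-0.49, edgeR adjusted p 0.132 without and 0.0270 with the block), Cnep1r1, listed as Tmem188 (-0.65, 0.0571 and 0.0238), Nup58, listed as Nupl1 (-0.56, 0.209 and 0.0471), and Ehmt1 (-0.48, 0.109 and 0.0461). Ehmt1, an H3K9 methyltransferase gene, also passed without the block when the quiescent knockdown library of experiment 7 was left out (edgeR adjusted p 0.0454). The cell cycle list had 5 higher genes with the block (16.7%, against 3.55% of all genes), among them Rrm2 (1.35, edgeR adjusted p 0.159 without and 0.00928 with it). All 30 of its genes had a positive interaction, with a median of 0.94, where 6387 of all 12406 genes had a positive one. Of the 30, 0 passed edgeR's adjusted test, as 0 of all genes did. An unadjusted p under 0.05 was found for 9 (30%, against 1.77% of all genes), and DESeq2 called 2, against 6 of all genes.

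The profiles most like those of 4 members were found by the root-mean-square difference in log2 CPM over the 12 libraries, each gene centred on its own mean. For Lmna they were Smc3, a cohesin subunit gene (0.075), Nkain1 (0.084) and Ikbkap (0.084), against a median of 0.417 over all tested genes. For Lmnb1 they were Fmnl1 (0.124), the DNA methyltransferase gene Dnmt1 (0.143) and Pkmyt1, a kinase gene of mitotic entry (0.156), against 0.851. For Lbr they were the histone chaperone gene Nasp (0.148), Hirip3 (0.174) and Shmt1 (0.180), against 1.01. For Sun2 they were the CDK inhibitor gene Cdkn1a (0.142), Smpd1 (0.150) and AI848100 (0.153), against 0.661. These 12 points share experiments and states, and the likeness describes profiles only. Among the members, the closest pair was Lmna and Tmpo (0.174), while Lmnb1 and Lbr were 0.271 apart and Nrm and Sun2, at opposite ends, 1.58 apart.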

How the data were processed

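The authors deposited raw counts per gene symbol for 12 libraries, whole numbers with no normalization. The submitters' processing notes name Bowtie, TopHat, HTSeq, DESeq2 and build mm10; their roles, their versions and the use of strand are not given in the sources used here. Per the labels' protocols, libraries were poly(A)-selected and stranded, and ERCC spike-in RNA was present; the table holds 0 ERCC rows, so no spike-in scaling was made.

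Counts were fitted in R 4.3.3 with edgeR 4.0.16 to all 12 libraries: filterByExpr (minimum count 10), TMM, glmQLFit and glmQLFTest on 4 group means, 5 contrasts, Benjamini-Hochberg adjustment over 12406 genes and a threshold of 0.05. The fit was tested on simulated data with 200 changed genes. Log2 CPM used a prior count of 2, and count ratios a pseudocount of 0.5 with exact permutation tests. Alternatives were the replicate block, other scalings (edgeR's median-of-ratios factors, upper quartile, totals alone), the DESeq2 1.42.0 Wald test, other filters, only the libraries compared, and leaving out each library. Libraries of the same experiment, which the labels also give as the same batch, deviated together from their group means (mean r 0.526 over 18 pairs, 0.225 to 0.789), so the numbers pair them. The 36 other pairs had a mean r of -0.259. Deviations from a mean of 3 libraries sum to 0, so that value follows from the first and is no separate comparison. No replicates were identical, and their chi-square per degree of freedom was 37.5 to 102, so all 3 per group were kept.

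Gene positions, exon lengths and overlaps are from GENCODE M21 (GRCm38), promoters from RefSeq, and copies were searched with blastn 2.17.0. Named are Stag2, the 10 members, Mki67 and Top2a; from each list the 3 largest changes each way past the threshold on quiescence in control cells (mean log2 CPM of at least 2, same direction in 3 experiments) and up to 3 each way between hairpins past it with or without the block; and the 3 nearest profiles of Lmna, Lmnb1, Lbr and Sun2. Syne2, Zmpste24, Kpnb1, Nemp2 and Ankle1 were named after their values were seen. The members and lists were chosen with earlier results of these data known.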

Additional observations from a re-analysis of the deposited data

Results flagged for a closer look

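For 3 genes the knockdown effect pointed in opposite directions in proliferating and quiescent cells in all 3 experiments, as for 2.82% of all 12406 tested genes. Some of these differences were near 0 (-0.0041 for Lmna in proliferating cells of experiment 5), and leaving out 1 library turned the sign of Lmna in proliferating cells and of Lbr in both states. The interaction, the effect in quiescent minus that in proliferating cells, was 1.36 on the log2 scale for Nrm, 0.26 for Lbr and 0.15 for Lmna, and the edgeR adjusted p of the interaction was 0.99975 for each. Only Nrm had an unadjusted interaction p under 0.05 (0.00169; with the replicate block 8.96e-05, edgeR adjusted p 0.278). Its differences between hairpins were -0.46, -0.0034 and -0.045 in proliferating cells of experiments 5, 7 and 9 and 1.06, 1.10 and 1.37 in quiescent cells. For Lbr and Lmna the differences within experiments did not exceed 0.21 in size in either state.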

How the results depend on the processing

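Quiescence called 5 to 9 of the 10 genes in control and 5 to 7 in knockdown cells over the alternatives, and 5 to 7 and 4 to 8 when each library was left out. Calls among all genes moved too. Over the alternatives they ran from 1582 of 11954 to 4374 of 12406 in control and from 1921 of 12071 to 4096 of 12406 in knockdown cells. With each library left out they ran from 1394 of 12639 to 3078 of 12625 and from 1186 of 12547 to 2408 of 12625. The knockdown in quiescent cells called 1 gene with the replicate block and 2 with the DESeq2 Wald test, against 0; the knockdown in proliferating cells and the interaction called 0 throughout. The block moved -2.67 for Nrm to -2.69 and -1.92 for Lbr to -1.89, and changed no member's call beside those given in the report. No scaling moved the median of all genes by over 0.1.

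Signs turned only in values that were not called. Of the knockdown in proliferating cells, Lmna was 0.015 and Lmnb1 0.020 with upper-quartile scaling, and 0.018 and 0.021 with totals alone. When 1 library was left out, the log2 fold change of the knockdown in proliferating cells ran from -0.052 to 0.0042 for Lmna, -0.19 to 0.16 for Lmnb1, -0.43 to 0.076 for Lbr, -0.11 to 0.063 for Emd, -0.037 to 0.34 for Sun2, -0.34 to 0.083 for Banf1, -0.41 to 0.19 for Mki67 and -0.41 to 0.16 for Top2a. In quiescent cells it ran from -0.089 to 0.20 for Lmnb1, -0.13 to 0.30 for Lbr, -0.029 to 0.18 for Sun2 and -0.038 to 0.19 for Banf1. The interaction ran from -0.081 to 0.27 for Lmnb1, -0.32 to 0.028 for Lmnb2, -0.10 to 0.18 for Tmpo, -0.13 to 0.050 for Emd and -0.26 to 0.12 for Sun2, and quiescence in knockdown cells from -0.038 to 0.057 for Sun1. The log2 ratio difference between hairpins ran, in proliferating cells, from -0.16 to 0.17 for Lmna to Lmnb1, -0.14 to 0.43 for Lmna to Lbr and -0.21 to 0.092 for Lmnb2 to Lmnb1, and in quiescent cells from -0.085 to 0.20 and -0.10 to 0.14 for the first pair of these. The cause was not tested.

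Raw counts of Nrm went down to 36 in a library, and each group held 3 libraries.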
